A study of Mus musculus with 3 samples.

Results

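Integrins are cell surface receptors made of 1 alpha and 1 beta chain, and 10 integrin genes found on leukocytes are described here: Itgam, Itgax, Itgal, Itgb2, Itga4, Itgb7, Itgb1, Itga6, Itgav and Itgb5. They were chosen by name and are 10 of the 36835 genes with a level in the deposited table. RNA was sequenced from 3 cell subsets sorted from BALB/C mice that carried tumors of Renca in the kidney. Renca is a mouse renal carcinoma line, and the study's text names its Cherry and luciferase form, Renca Ch+ L+. The libraries are labelled M1 (Type-1 macrophages), M2 (Type-2 macrophages) and CD4 (CD4 T lymphocytes), with 1 library each, and no genotype or drug treatment sets them apart. In the study's gating, M1 cells were F4/80 int and CD11b hi, M2 cells F4/80 hi and CD11b int, and CD4 cells positive for TCRbeta and CD4. CD11b is the product of Itgam, so that the sort itself used 1 of the 10 proteins. Cells were pooled from 30 tumors for the macrophages and from 4 spleens for the CD4 cells. The labels name day 14 in 1 field and day 16 in another, and the CD4 cells are given both spleen and tumor as their organ. With 1 library per subset there is no spread between replicates, no p-value can be formed, and the differences below describe these libraries.

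The alpha chain largely sets what an integrin binds, and the beta chain links it to talin and kindlin inside the cell. A chain reaches the surface only with a partner, which is why alpha and beta levels are set side by side. The beta-2 chain (Itgb2, CD18) pairs with alpha-L (Itgal, CD11a) as LFA-1, the lymphocyte receptor for ICAMs, with alpha-M (Itgam, CD11b) as Mac-1, a complement and fibrinogen receptor of myeloid cells, and with alpha-X (Itgax, CD11c), a marker of dendritic cells and some macrophages. Alpha-4 (Itga4, CD49d) pairs with beta-1 (Itgb1, CD29) to bind VCAM-1 and fibronectin, or with beta-7 (Itgb7) to bind the gut addressin MAdCAM-1. Alpha-6 (Itga6, CD49f) with beta-1 is a laminin receptor. Alpha-v (Itgav, CD51) with beta-5 (Itgb5) or beta-1 binds vitronectin and fibronectin, and alpha-v with beta-5 also takes part in the uptake of apoptotic cells.

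Marker levels were examined first, since they check the names of the libraries, and they go against 2 of the 3 names. Of 14 T-cell markers with a level, 14 were highest in the library labelled M2, where they summed to 2246 FPKM, against 6.98 in M1 and 19.1 in CD4. Cd247, the CD3 zeta chain, was listed at 0 in M1 and CD4. Of 12 macrophage markers, 12 were lowest in the library labelled M2, with sums of 649.8 FPKM there, 8173 in M1 and 13201 in CD4. For this reason the columns are called the library labelled M1, M2 or CD4 throughout, and every direction below rests on those labels. FPKM counts fragments per length of transcript and per size of library, so that chains can be compared within a library. Depth is not part of the values and was estimated as 61600000 fragments for M1, 60400000 for M2 and 72800000 for CD4.

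The table lists transcripts, and 14 of the 52 member rows that were used were above 0. Itgam and Itgal were each split over a pair of variants whose coding sequences differ by 1 triplet at an exon boundary, and Itga6 over a coding and a noncoding variant. These sequences are shown because they are where the coding sequences of the variants part. Outside the coding sequence the Itgam pair differs by 8 further bases and the Itgal pair by 31, at the transcript ends. The Itgam pair differs at the start of exon 14 of 30, at chr7:135245148-135245150 of NCBIM37 on the plus strand, which are coding bases 1498 to 1500 of Itgam-201. The Itgal pair differs at the end of exon 18 of 31, at chr7:134460878-134460880 on the plus strand, coding bases 2227 to 2229 of Itgal-001. Each line runs 5′ to 3′ with 15 coding bases on either side, and capitals mark the triplet that the other variant lacks.
Itgam-201: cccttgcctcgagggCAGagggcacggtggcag
Itgam-004: cccttgcctcgagggagggcacggtggcag
Itgal-001: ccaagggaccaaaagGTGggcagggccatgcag
Itgal-002: ccaagggaccaaaagggcagggccatgcag
For Itga6 the coding part of exon 25 of 26 in Itga6-001 is shown, because it holds the cytoplasmic tail by which the annotated coding variants Itga6-001 and Itga6-002 differ. It lies at chr2:71691591-71691695 on the plus strand, coding bases 3115 to 3219, is 105 bases long and is absent from Itga6-002, which was listed at 0 in the 3 libraries.
Itga6-001 exon 25: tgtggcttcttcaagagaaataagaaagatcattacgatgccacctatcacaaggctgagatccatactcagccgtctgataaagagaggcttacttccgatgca

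Itgam, Itgax and Itgb7 had the widest ranges between libraries, and the 250 bases before their annotated starts are shown for that reason. They come from RefSeq on build GRCm38.p6, which held a promoter for 7 of the 10 members (not Itgal, Itgb2 and Itga6). Their coordinates, on that build, are chr7:128062390-128062639 on the plus strand for Itgam, chr7:128129300-128129549 on the plus strand for Itgax and chr15:102231936-102232185 on the minus strand for Itgb7. Capitals mark GAGGAA, the core letters bound by PU.1 and other ETS factors, or its reverse complement TTCCTC.
Itgam: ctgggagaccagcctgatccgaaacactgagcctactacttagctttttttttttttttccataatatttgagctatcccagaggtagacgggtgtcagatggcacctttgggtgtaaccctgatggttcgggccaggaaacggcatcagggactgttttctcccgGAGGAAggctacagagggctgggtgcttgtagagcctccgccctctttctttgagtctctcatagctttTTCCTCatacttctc
Itgax: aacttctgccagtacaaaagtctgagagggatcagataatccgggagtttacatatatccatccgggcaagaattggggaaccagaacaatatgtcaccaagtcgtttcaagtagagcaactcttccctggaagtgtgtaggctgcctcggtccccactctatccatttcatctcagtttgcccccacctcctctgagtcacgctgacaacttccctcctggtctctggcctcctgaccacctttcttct
Itgb7: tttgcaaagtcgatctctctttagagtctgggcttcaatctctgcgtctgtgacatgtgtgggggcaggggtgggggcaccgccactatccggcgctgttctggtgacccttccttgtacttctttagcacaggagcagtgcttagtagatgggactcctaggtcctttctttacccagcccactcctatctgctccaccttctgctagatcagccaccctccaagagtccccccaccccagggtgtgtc
GAGGAA was searched on both strands and stood at 2 places in the Itgam window, beginning 84 bases and 15 bases before the start. It was not in the Itgax or Itgb7 window, and was present in 3 of the 7 members (Itgam, Itgb1 and Itgav) beside 23.3% of 32851 promoters of the same length. GGGCGG, the GC box, was in 4 of 7 (Itgam, Itga4, Itgb1 and Itgb5) beside 32.7%. TGTGGT, a RUNX core, was in Itga4 only beside 14.0%, and TATAAA was in 0 of 7 beside 12.4%. These are matches of letters in one window, not sites of binding.

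Levels of the chains that pair with beta-2 are given first. Itgam was at 298.8 FPKM in the library labelled M1, 14.7 in M2 and 200.9 in CD4. It was the highest of the 10 members in M1 and CD4 and only the 8th in M2, and its highest level was 20.3 times its lowest. Itgam is the gene of the gated protein CD11b, and by the study's gates the CD4 cells were not selected for it. Itgax was at 123.8 FPKM in M1, 5.30 in M2 and 29.5 in CD4, a range of 23.4 times. It followed the same order as Itgam, M1 over CD4 over M2, with a wider gap between M1 and CD4 (4.19 times against 1.49 times for Itgam). Itgal was highest where Itgam and Itgax were lowest, with 57.1 FPKM in M2, 36.1 in M1 and 23.7 in CD4, and a range of 2.41 times (3.61 with all rows summed). Their common partner Itgb2 was at 285.1 FPKM in M1, 99.4 in M2 and 95.9 in CD4. Its levels in M2 and CD4 differed by 0.05 on the log2 scale of FPKM + 1, so that the library with 14.7 FPKM of Itgam and the one with 200.9 had nearly the same level of the beta chain. Fewer cells of a type and less RNA per cell cannot be told apart in sorted bulk RNA.

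Itgb7 had the widest range of the 10. It was at 153.9 FPKM in the library labelled M2, 14.8 in M1 and 0.730 in CD4, where it rested on an estimated 142 fragments (exact 95% Poisson interval 0.614 to 0.860 FPKM, counting error only). The level in M2 was 211 times that in CD4 (121 times with all rows summed), and Itgb7 was the highest member in M2 and the lowest in CD4. Its partner Itga4 followed the same order over a narrower range of 10.6 times, with 31.9 FPKM in M2, 6.90 in M1 and 3.02 in CD4. The other beta partner of alpha-4, Itgb1, was high in each library, at 135.3 FPKM in M1, 96.2 in M2 and 159.8 in CD4. Its range was 1.66 times, so that Itgb1 varied far less than Itgb7.

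Itga6 was the 1 member that was low in M1 alone, at 7.44 FPKM against 47.0 in M2 and 43.6 in CD4. M2 and CD4 differed by 0.10 on the log2 scale for this gene. Itgav was the steadiest of the 10, at 9.74 FPKM in M1, 8.81 in M2 and 12.0 in CD4, a range of 1.36 times. Its partner Itgb5 was at 50.1 FPKM in M1, 23.5 in M2 and 98.2 in CD4, so that it was highest where the macrophage markers were highest and lowest where they were lowest. Itgb5, Itgb1 and Itgav shared the order CD4 over M1 over M2, with ranges of 4.18, 1.66 and 1.36 times.

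**Figure D1:**
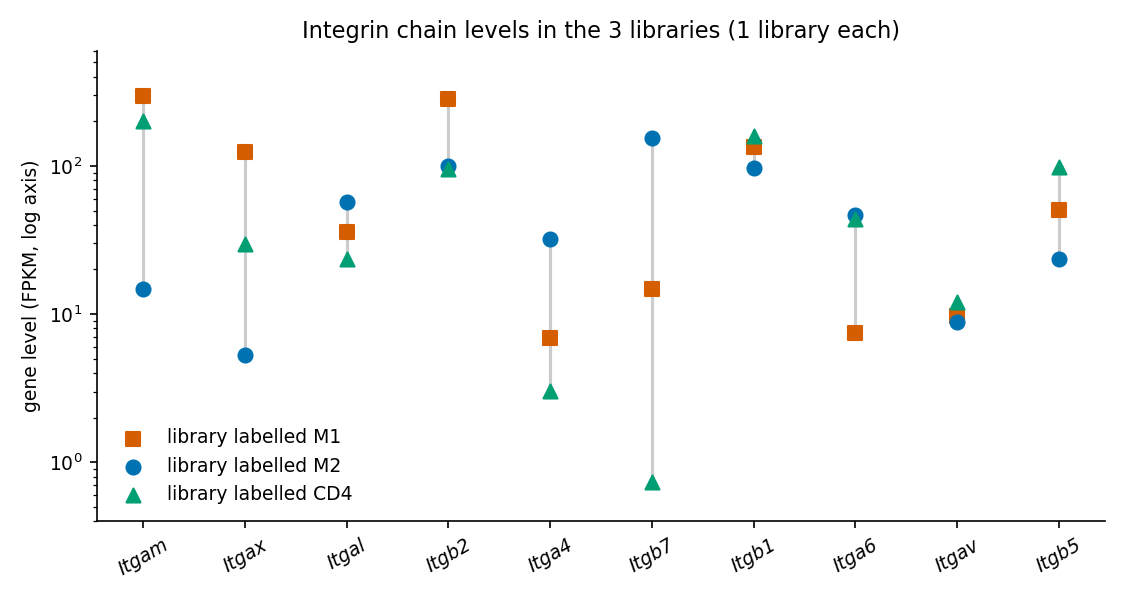
Gene levels in FPKM on a log axis for the 10 integrin genes, with 1 point for each library (squares M1, circles M2, triangles CD4, by their labels) and a grey line over their range. Itgb7 spans 0.730 to 153.9 FPKM, while the 3 points of Itgav lie between 8.81 and 12.0.

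At least 10 FPKM was reached by 7 members in M1, 8 in M2 and 8 in CD4, and at least 100 FPKM by 4, 1 and 2. The highest level of a member was in M1 for 3 genes, in M2 for 4 and in CD4 for 3, and the lowest in M1 for 1, in M2 for 5 and in CD4 for 4. The lowest estimated number of fragments behind a member was 1534 in M1, 1293 in M2 and 142 in CD4. Counting error was therefore small beside the differences past 2-fold, and the spread between samples is unknown. Sharing of sequence was examined with other integrin genes and with overlapping genes only. Of the 51-base windows of Itgax transcripts 9.48% were also in Itgad, its neighbour and close relative. The other 9 members shared 0 windows with another integrin gene that was searched. Beta genes were searched only where the name was Itgb and a single digit, which left out Itgb2l. Itga4 overlaps Cerkl on the opposite strand over 1124 exonic bases and Itgav overlaps the noncoding Gm13684 over 634, and both of those genes were listed at 0 in the 3 libraries.

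On the genome the alpha chains of beta-2 lie close together. In NCBIM37, Itgal (ENSMUSG00000030830) is at chr7:134439774-134478651, Itgam (ENSMUSG00000030786) at chr7:135206154-135271674 and Itgax (ENSMUSG00000030789) at chr7:135273061-135294171, with each on the plus strand. Itgax begins 1386 bases after the end of Itgam, and Itgam begins 727.5 kb after the end of Itgal. Itgad, the alpha-D chain that also pairs with beta-2, begins 3718 bases after Itgax. The neighbours Itgam and Itgax shared their order of levels, and Itgad was listed at 0 in M2 and CD4 and was at 4.45 FPKM in M1. Itgb2 is on chromosome 10, Itgb7 on chromosome 15 and Itgb5 on chromosome 16, whereas Itga4, Itga6 and Itgav are on chromosome 2 and Itgb1 is on chromosome 8.

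Partner ratios addressed which beta-2 heterodimer the RNA could supply. The summed Itgal, Itgam and Itgax level was 458.7 FPKM in M1, 77.2 in M2 and 254.1 in CD4. Relative to Itgb2 this was 1.61 in M1, 0.776 in M2 and 2.65 in CD4, so that alpha RNA exceeded beta-2 RNA in M1 and CD4 and was below it in M2. The last of these turned to 1.02 when all rows of a gene were summed. Itgal made up 74.0% of the alpha sum in M2, against 7.86% in M1 and 9.33% in CD4. Itgam made up 65.2% in M1, 19.1% in M2 and 79.1% in CD4, and Itgax 27.0%, 6.86% and 11.6%. The leading alpha chain was thus Itgam in M1 and CD4 and Itgal in M2, and it stayed the same for each of the row choices tried. Scaling a library cannot change a share within it. M1 and CD4, alike in the share of Itgal, differed in the balance of the remaining chains, with 2.41 times as much Itgam as Itgax in M1 and 6.81 times in CD4. The M2 value was 2.78.

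**Figure D2:**
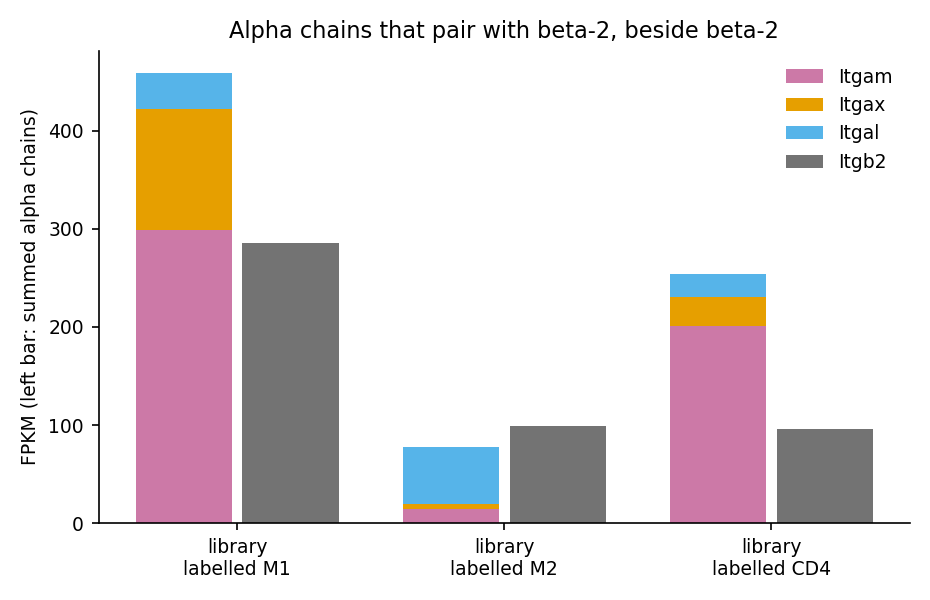
Stacked bars give the FPKM of Itgam, Itgax and Itgal in each library, and the grey bar beside each gives Itgb2, on a linear axis from 0. The alpha stack is 458.7 FPKM beside 285.1 of Itgb2 in M1, 77.2 beside 99.4 in M2 and 254.1 beside 95.9 in CD4.

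Single pairs showed the same contrast. Itgam was 1.05 times Itgb2 in M1, 0.148 times in M2 and 2.096 times in CD4. Itgax was 0.434, 0.0533 and 0.308 times Itgb2 in the same order. Itgal was 0.127, 0.575 and 0.247 times Itgb2, and it was the 1 alpha chain of the 3 that was nearer to its partner in M2 than in the other libraries. With only the highest row of each gene, Itgam was 0.671 times Itgb2 in M1 and 0.0935 times in M2, and Itgal 0.0766, 0.287 and 0.160 times in M1, M2 and CD4.

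For alpha-4 the choice of beta partner differed widely. Itgb1 was 9.12 times Itgb7 in M1 and 219 times in CD4, but 0.625 times in M2, so that Itgb7 RNA exceeded Itgb1 RNA in M2 alone. Summing all rows lowered the value in CD4 to 125.7. Itga4 itself was 0.466 times Itgb7 in M1, 0.207 times in M2 and 4.13 times in CD4, so that in M2 the beta-7 chain was in excess of alpha-4. With all rows summed the ratio in CD4 was 2.37. Adding Itgae, the alpha-E chain that also pairs with beta-7, changed these ratios to 0.472, 0.247 and 4.66. Beside Itgb1, Itga4 was at 0.0510 in M1, 0.332 in M2 and 0.0189 in CD4.

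Itga6 was 0.0550 times Itgb1 in M1, 0.488 times in M2 and 0.273 times in CD4. Itgav varied little beside Itgb1, at 0.0720, 0.0916 and 0.0749, and more beside Itgb5, at 0.194, 0.375 and 0.122. Itga4, Itga6 and Itgav together came to 0.178 of Itgb1 in M1, 0.912 in M2 and 0.367 in CD4. Itgb1 was thus above the sum of these 3 partners in each library, and least so in M2, with 96.2 FPKM beside 87.7. Further beta-1 partners were not in that sum, among them Itga7 at 7.12 FPKM and Itga5 at 3.59 in M2. An excess of Itgb1 over all its partners is therefore not shown. Of the Itga6 level in these sums, 60.8% in M1, 56.7% in M2 and 55.2% in CD4 was in a variant annotated as noncoding. A ratio of RNA levels is not a ratio of proteins or of heterodimers at the surface.

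**Figure D3:**
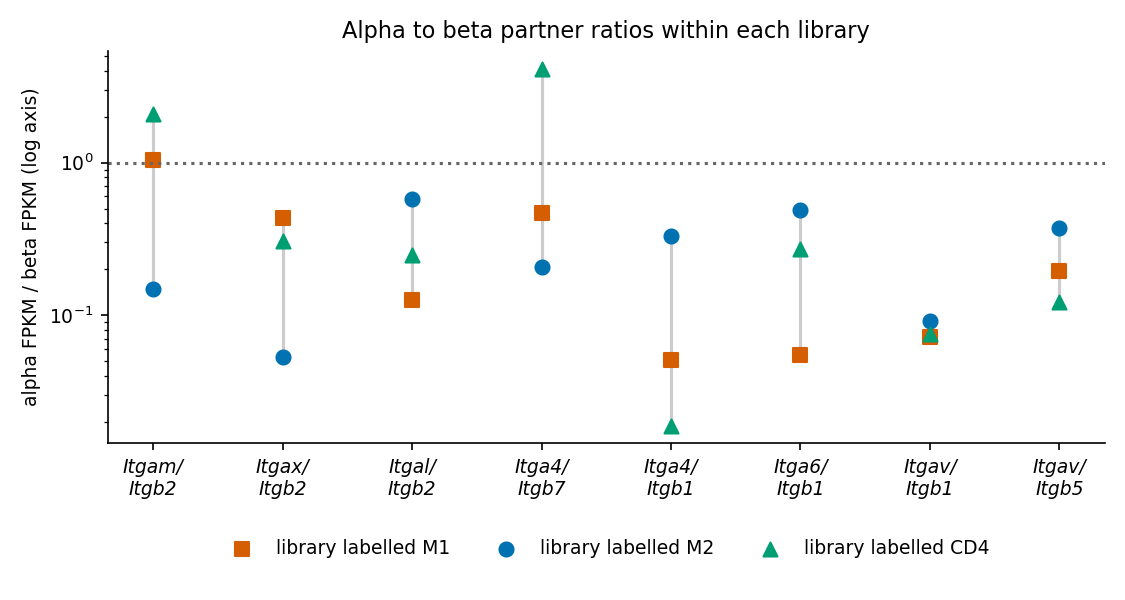
Ratio of alpha to beta FPKM within each library for 8 partner pairs on a log axis, with the dotted line at equal levels. Points lie above the line for Itgam to Itgb2 in M1 (1.05) and CD4 (2.096) and for Itga4 to Itgb7 in CD4 (4.13), and the others below it.

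The libraries were then compared pairwise, on the scale log2(FPKM + 1), which understates the change of low genes. A gene was counted as higher or lower past 2-fold, and the share of all genes past 2-fold serves as the background. The 3 comparisons share libraries and are not independent of each other.

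Between the libraries labelled M2 and CD4, 3 members were higher in M2 (Itgb7 by 6.48, Itga4 by 3.04 and Itgal by 1.23 on the log2 scale). Another 3 were lower (Itgam at -3.68, Itgax at -2.28 and Itgb5 at -2.02), and 4 were within 2-fold. Of the 20827 genes above 0 in either library 10.4% were higher in M2 and 9.14% lower, and of the 6732 genes at 10 FPKM or more in either, 15.9% and 17.8%. The 10 members passed that filter too. The median of the members was -0.18, beside 0.02 for all genes above 0. After each library was rescaled to the same total, 3469 genes were higher and 2065 lower, compared with 2156 and 1903 as deposited. That rescaling raised all levels, so that the added 1 weighed less. Median ratio scaling gave 2005 higher and 1996 lower, and the member counts stayed at 3 and 3 under both. The alpha chains of beta-2 fell on both sides, Itgal higher and Itgam and Itgax lower, with Itgb2 itself at 0.05. The T-cell marker sum was 2246 FPKM in M2 and 19.1 in CD4 and the macrophage sum 649.8 and 13201, and the part of cell makeup in these differences was not tested.

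Between the libraries labelled M2 and M1, 3 members were higher in M2 (Itgb7 by 3.29, Itga6 by 2.51 and Itga4 by 2.06). Lower in M2 were 4, namely Itgax at -4.31, Itgam at -4.25, Itgb2 at -1.51 and Itgb5 at -1.06. Of 20809 genes above 0 in either library 10.1% were higher in M2 and 8.68% lower, and of 6715 at 10 FPKM or more 15.2% and 17.2%. Under that filter 9 members remained (not Itgav), with the same counts. The median of the members was -0.31, beside 0.02 for all genes above 0. The call of Itgb5 was near the threshold and ended after rescaling, at -0.90, while Itgal, at 0.65, passed it with all rows summed, at 1.22. Rescaling turned the counts over all genes from 2110 higher and 1806 lower to 3508 and 1912, and median ratio scaling to 2021 and 1868. Dendritic cell markers summed to 32.8 FPKM in M1 and 130.6 in M2, monocyte markers to 606.0 and 247.7 and neutrophil markers to 49.8 and 234.2. These cell types also carry beta-2 integrins, and their part in the member differences was not tested.

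Between the libraries labelled CD4 and M1, 1 member was higher in CD4 (Itga6 by 2.40) and 3 were lower (Itgb7 at -3.19, Itgax at -2.03 and Itgb2 at -1.56). Over 19977 genes above 0 in either library 4.05% were higher in CD4 and 4.2% lower, and over 6031 at 10 FPKM or more 6.32% and 6.9%. Of the members 9 passed this filter (not Itga4), with the same counts. The median was -0.58 for the members and 0.00 for all genes above 0, and 6 members lay within 2-fold. Itga4, at -0.98, lay just inside the threshold, as it did under median ratio scaling at -0.96. It passed the threshold at -1.10 after rescaling and at -1.17 with a pseudocount of 0.1 FPKM. Itgb5 was just short of the threshold on the other side, at 0.96. Itgam, the gene of the gated protein CD11b, differed by -0.57, less than 2-fold. Monocyte markers summed to 185.4 FPKM in CD4 and 606.0 in M1 and macrophage markers to 13201 and 8173, and their part in these differences was not tested.

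**Figure D4:**
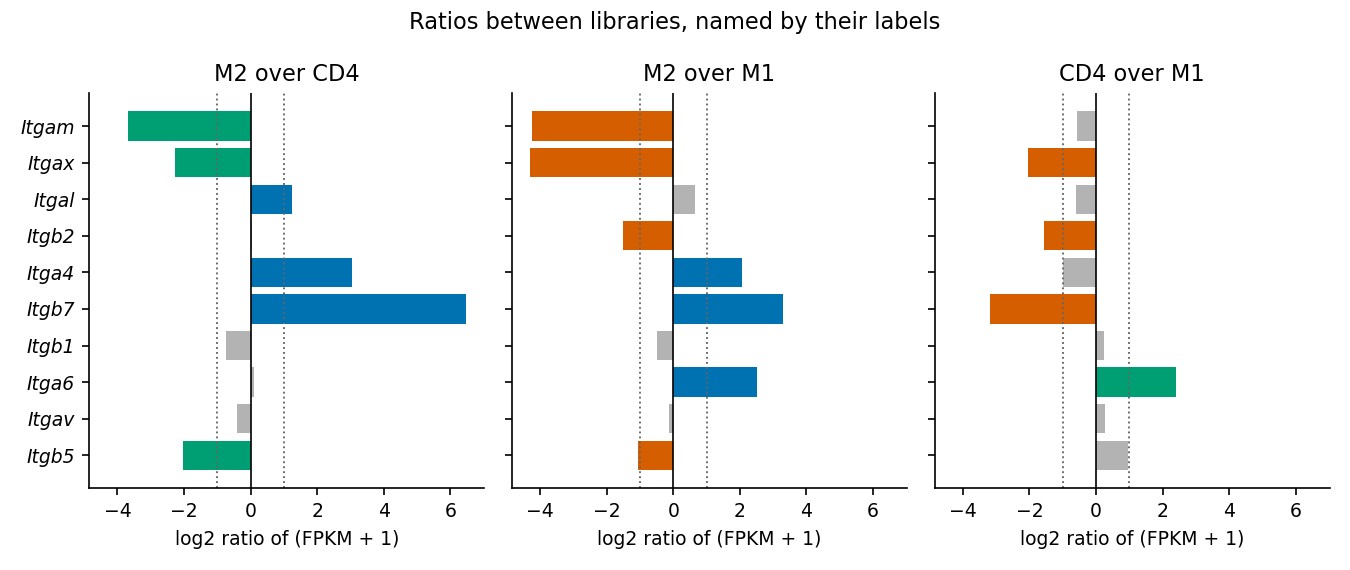
Bars give the log2 ratio of FPKM + 1 for each member in the 3 pairwise comparisons, with dotted lines at 2-fold. Coloured bars are past 2-fold, in the colour of the library with the higher level, and grey bars are within it, and Itgb7 has the longest bar, 6.48 for M2 over CD4.

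Variant shares were alike between libraries for Itgam. Itgam-004, without the CAG triplet printed above, took 64.0% of the gene level in M1, 63.1% in M2 and 62.1% in CD4, and Itgam-201 the remainder. Over a 20.3-fold range of the gene level the share thus moved by little. For Itgal the shares varied more. Itgal-001, with GTG, took 60.5% in M1, 49.9% in M2 and 56.3% in CD4. A further row of Itgal-002 in M2, not used here, would bring Itgal-001 to 33.4% in that library. Such shares rest on few differing bases and on the model by which Cufflinks divides reads, and their error is unknown.

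Most of the Itga6 level was assigned to a variant annotated as noncoding. Itga6-005, a processed transcript of 2721 bases in 3 exons, was at 4.52 FPKM in M1, 26.6 in M2 and 24.1 in CD4, which was 60.8%, 56.7% and 55.2% of the gene level. The coding Itga6-001 was at 2.92, 20.4 and 19.5 FPKM. Itga6-005 shares 1031 bases with Itga6-001, and its last exon runs 1658 bases past the annotated end of that variant. Whether reads in these stretches came from coding transcripts was not tested. The order of levels and the calls for Itga6 were the same when coding rows alone were used, and its ratio to Itgb1 was then 0.0216 in M1, 0.212 in M2 and 0.122 in CD4. Itgb2 was listed in 1 coding variant in M1 and M2. In CD4 13.2% of its level, 12.6 FPKM, was in Itgb2-003, a variant marked for nonsense-mediated decay that lacks exon 12 of 16 (chr10:77022224-77022468, 245 bases).

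The rest of the integrin family was examined as a list of 17 genes, in which Itgb2l was left out. All 17 had a level in the table, among them Itgbl1, which encodes a beta-like protein, is no integrin chain and was within 2-fold throughout. Past 2-fold were 3 higher and 2 lower in M2 than in CD4 of 15 above 0 (10.4% and 9.14% of all genes), 4 and 2 against M1 of 16 (10.1% and 8.68%), and 1 and 2 for CD4 against M1 of 15 (4.05% and 4.2%). Itga5, the fibronectin receptor chain that pairs with beta-1, was the highest of them in M1 and was at 30.9 FPKM in M1, 3.59 in M2 and 14.1 in CD4. Itgb3, which pairs with alpha-v and with the platelet chain alpha-IIb, was at 13.6 FPKM in M2, 0.466 in M1 and 0.255 in CD4. The platelet partner Itga2b was at 0.0921, 0.121 and 0.0765 FPKM in M1, M2 and CD4, while Itgav was at 8.81 in M2. Itgae, the alpha-E partner of beta-7, was at 6.08 FPKM in M2, 0.0988 in M1 and 0.381 in CD4, highest in the same library as Itgb7. Itga9, a further beta-1 partner, was highest in CD4 with 18.6 FPKM, against 1.98 in M1 and 0.888 in M2. Itga7, a laminin receptor chain, was at 7.12 FPKM in M2, 2.57 in M1 and 3.02 in CD4. Itga3, Itga1 and Itga2 were below 3 FPKM in each library, with 2.53, 1.99 and 1.02 as their highest.

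**Figure D5:**
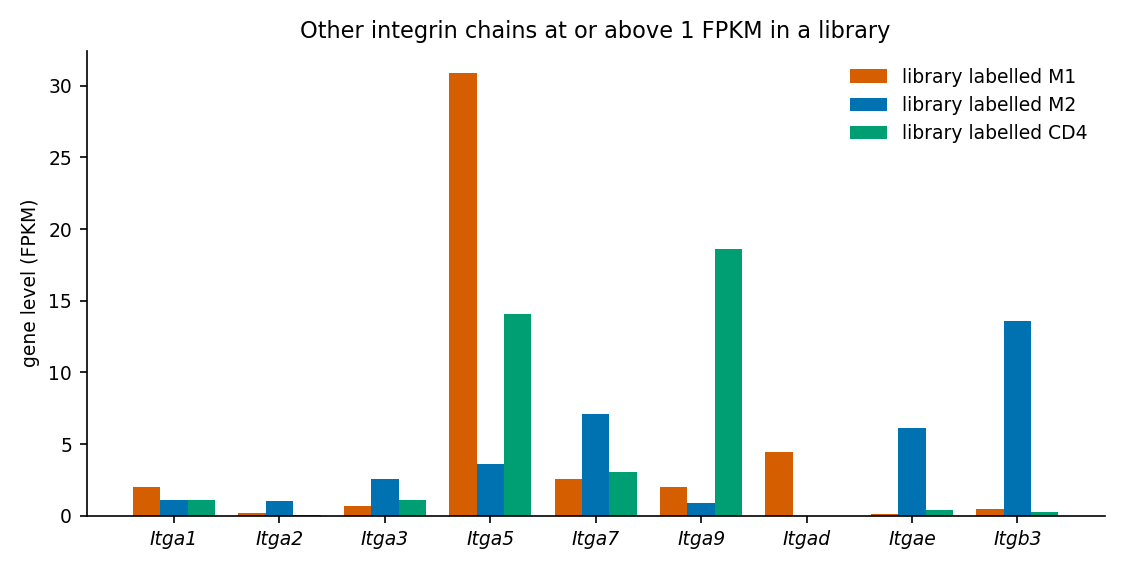
Levels in FPKM on a linear axis from 0 for the listed integrin chains outside the 10 members that reached 1 FPKM in a library, with 1 bar for each library. Itga5 is highest in M1 (30.9), Itga9 in CD4 (18.6) and Itgb3 in M2 (13.6), and Itgad has a bar in M1 alone (4.45).

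Genes that switch integrins on or signal from them were taken as a list of 39, of which 38 had a level. In M2 against CD4, 11 were higher and 8 lower of 37 above 0, in M2 against M1 10 and 8, and in CD4 against M1 2 and 3. As shares, 29.7% and 21.6% stood beside 10.4% and 9.14% of all genes above 0 in the first comparison. They were 27.0% and 21.6% beside 10.1% and 8.68% in the second, and 5.41% and 8.11% beside 4.05% and 4.2% in the third. Most of the list, 31, 31 and 28 genes, was at 10 FPKM or more in either library. Among all genes at that level the shares were higher, at 15.9% and 17.8%, 15.2% and 17.2%, and 6.32% and 6.9%. Their medians were -0.03, 0.16 and -0.04 on the log2 scale. Skap1, the adaptor that links the T-cell receptor to integrin activation, was at 99.9 FPKM in M2, 0.0775 in M1 and 0.113 in CD4. Its relative Skap2, the form of myeloid cells, had the reverse pattern with 3.68 FPKM in M2, 105.2 in M1 and 96.4 in CD4. Adaptors of the same family thus took opposite sides, as Itgal and Itgam did. Zap70, a kinase of the T-cell receptor that is also in the T-cell marker list, was at 56.7 FPKM in M2, 0.0547 in M1 and 0.0688 in CD4. Rasgrp2, an exchange factor for Rap1, was at 56.4 FPKM in M2 and 3.55 in M1, and was listed at 0 in CD4.

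Fgr, a myeloid Src family kinase that acts below beta-2, was at 80.1 FPKM in M1, 6.03 in M2 and 6.90 in CD4, so that it was high in M1 alone. Parvb, a partner of integrin-linked kinase, was at 22.4 FPKM in M1, 1.34 in M2 and 17.5 in CD4. Rap1b, a small GTPase that drives integrin activation, followed another order, at 39.1 FPKM in M1, 116.4 in M2 and 291.8 in CD4. Talin (Tln1) was at 86.8, 91.4 and 105.9 FPKM in M1, M2 and CD4 and kindlin-3 (Fermt3) at 68.7, 45.9 and 84.7, both within 2-fold in each comparison. Vasp, an actin regulator at adhesions, was at 119.8, 97.4 and 60.2 FPKM, and Itgb1bp1, which binds the beta-1 tail, at 35.6, 39.9 and 15.2, the latter past 2-fold between CD4 and M1. Zyx, an adhesion protein of most cells, was listed at 0 in M1 and was at 8.78 FPKM in M2 and 11.01 in CD4, and a listed 0 can be a failed estimate.

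Ligands and counter-receptors of these integrins were taken as a list of 34, all with a level. In M2 against CD4, 5 were higher and 5 lower of 31 above 0, in M2 against M1 3 and 7 of 29, and in CD4 against M1 1 and 4 of 30, with medians of -0.01, 0.02 and 0.01. These were 16.1% each way, 10.3% and 24.1%, and 3.33% and 13.3%, beside the shares of all genes above 0 given for the activation list. At 10 FPKM or more in either library were 14, 14 and 13 of the ligands. Fn1, fibronectin, was at 558.0 FPKM in M1, 22.2 in M2 and 205.6 in CD4, the order that Itgam and Itgax had. Vcam1, the ligand of alpha-4 with beta-1, was at 28.8 FPKM in CD4, 7.13 in M2 and 3.42 in M1, and CD4 was the library with the lowest Itga4. Icam2, a ligand of LFA-1, was at 22.7 FPKM in M2, 1.00 in M1 and 0.468 in CD4. Thy1, a T-cell surface protein that is also in the marker list, was at 171.3 FPKM in M2, 0.705 in M1 and 1.87 in CD4.

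Among the remaining ligands, Cdh1 (E-cadherin), the ligand of alpha-E with beta-7, was at 48.2 FPKM in M1, 6.69 in M2 and 3.84 in CD4. Thbs1, thrombospondin-1, was at 59.3, 6.63 and 11.5 FPKM in M1, M2 and CD4. Both were highest in M1. Mfge8, which bridges apoptotic cells to alpha-v integrins, was highest in M2 with 79.9 FPKM, against 44.7 in M1 and 39.4 in CD4. Cd93 was at 13.7 FPKM in M1, 1.53 in M2 and 26.04 in CD4, and Lamc1, a laminin chain, at 10.5, 12.9 and 14.1. Adam15 was at 37.5 FPKM in M1 and 11.1 in M2 and was listed at 0 in CD4.

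The genes nearest to 5 of the members over the 3 libraries were sought among 7024 genes of at least 10 FPKM in 1 library, by the Euclidean distance of log2(FPKM + 1). With 3 libraries many genes share a pattern, and the neighbours are a description. Naaa, an acid amidase of lysosomes, lay at 0.20 from Itgam with 304.1 FPKM in M1, 16.6 in M2 and 219.7 in CD4, and Cfp, the complement regulator properdin, at 0.33. Il7r, the interleukin-7 receptor of lymphocytes, was nearest to Itgb7 at 0.98, with 8.15 FPKM in M1, 103.6 in M2 and 0.882 in CD4. The chemokine receptor Ccr7 followed at 1.16, with 121.9 FPKM in M2. Ccr7 is also in the dendritic cell list, whose other genes were at 3.53 FPKM or less in M2. The T-cell markers were highest in M2 too. No gene came as close to Itgb7 as the neighbours of Itgam did to Itgam. Ikbkb, a kinase of the NF-kB pathway, lay at 0.19 from Itgal, as did Gm6030, and Rnf103 and Dnmt3a lay at 0.03 and 0.08 from Itgav. The nearest to Itgb2 were Pgk1-rs7 at 0.58 and Pgam1-ps2 at 0.65, names of related sequences and pseudogenes whose reads could belong to a near-identical gene.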

How the data were processed

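RNA of 3 sorted cell subsets was sequenced with paired reads of 51 bases, 1 library each. The authors aligned reads to MM9 with TopHat 1.4.1, which ran Bowtie 0.12.8, and obtained transcript levels from Cufflinks 2.1.0 guided by Ensembl release 67. The submitters' processing notes also name Cuffdiff. The values the authors deposited are FPKM, in a table of 135070 rows, 10182 of them without an identifier. Rows with a dash instead of a level numbered 28490 for M1, 23458 for M2 and 28385 for CD4. Columns were assigned to libraries by their headings alone.

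Identifiers were joined to GENCODE on NCBIM37 (the same build as MM9, with Ensembl release 65), which held 90316 of 92519. For each identifier the first row with values in the 3 columns was kept, and rows were summed per gene. For the 10 members 65 rows carried 53 of 59 annotated identifiers, 13 rows held a dash and 52 were used. Ratios used log2(FPKM + 1) and a threshold of 2-fold. The level of 1 fragment, and with it depth, was read from the mode of low products of FPKM and length in 2196 genes with a single coding transcript of 2500 to 8000 bases, and intervals from it cover counting error only. Whether reads were assigned by strand is not given in the sources used here. Sequences came from NCBIM37 transcripts and RefSeq promoters. The 2-fold call and the estimate of depth were first tested on simulated libraries, and the choice of rows on a small made-up table. The other calculations were not tested in this way.

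The members and lists were chosen with earlier results of these data known. The genes named were the members, other listed integrin chains of at least 1 FPKM in a library, and the 2 nearest genes of 5 members. For the activation and ligand lists they were the 3 largest ratios in each direction and comparison among genes of at least 10 FPKM. Tln1, Itga2b, Cerkl and Gm13684 are named outside this rule and were chosen after their values were seen. The same holds for the single genes named for the platelet, endothelium, dendritic cell and monocyte sums. Itgb2l is named only because it was left out. The level of 1 member of the activation list is not reported here by itself. The marker lists summed, in M1, M2 and CD4, to 0.405, 47.0 and 0.492 FPKM for B cells, 3.70, 29.8 and 0.396 for CD8 and NK cells, 100.2, 10.6 and 177.0 for platelets, 73.1, 192.3 and 93.0 for kidney epithelium, 7.73, 10.3 and 31.5 for fibroblasts, 3.78, 36.7 and 4.36 for endothelium, and 4.55 in CD4 for dendritic cells and 10.8 in CD4 for neutrophils. Alternatives were other choices of rows, scale, pseudocount and filter. Versions were Python 3.11.15, pandas 2.3.3, numpy 2.4.6, matplotlib 3.10.9 and scipy 1.17.1.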

Additional observations from a re-analysis of the deposited data

Results flagged for a closer look

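Rows that hold a value in 1 column and a dash in the others did not enter the comparisons, and 11 such values of the members were above the level of 3 fragments. The largest was a further row of Itgal-002 with 28.4 FPKM in the library labelled M2, 49.7% of the gene level used there. Itgb7-001 had 0.542 FPKM in CD4, 74.2% of the level used, which leaves Itgb7 lowest in that library. Itgam-001 had 16.2 FPKM in CD4, 8.07% of the level used, with 0.792, 0.695 and 0.625 FPKM in M1 and 0.369 in M2. The others were Itgb2-001 with 4.78 FPKM in M2, Itgav-001 with 1.33 in M1, Itga6-001 with 0.564 in M1 and Itgb1-001 with 0.227 in M2. What these rows stand for was not tested.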

How the results depend on the processing

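No paired analysis was possible because M1, M2 and CD4 were sequenced in 1 library each, and no library could be left out for the same reason. No member past 2-fold changed direction under the alternatives. Among those within 2-fold, Itgav for M2 against M1 turned from -0.13 to 0.04 after rescaling and Itgb2 for M2 against CD4 from 0.05 to -0.01 under median ratio scaling. Counts of members past 2-fold stayed within 1.5 times, and 3 members changed their side of the threshold: Itgal for M2 against M1 (1.22 with all rows summed), Itgb5 for M2 against M1 (-0.90 after rescaling to a total of 1000000) and Itga4 for CD4 against M1 (-1.10 after rescaling, -1.17 with a pseudocount of 0.1 FPKM). Over all genes, rescaling gave 3469 higher in M2 than in CD4 and 3508 higher than in M1. It moved the median of 9821 genes of at least 1 FPKM in each library from 0.06 to 0.23 and from 0.04 to 0.23. It also raised all levels against the fixed pseudocount of 1. Median ratio scaling gave 2005 higher in M2 than in CD4 and 2021 higher than in M1. A pseudocount of 0.1 gave 3740 higher in M2 than in CD4, 3798 higher and 2728 lower than in M1, and 1647 higher and 1537 lower in CD4 than in M1. With fewer genes tested at 10 FPKM or more, a filter chosen after seeing the data, these were 1070 and 1198, 1020 and 1157, and 381 and 416.

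The alpha sum over Itgb2 was 1.18 in M1, 0.434 in M2 and 2.02 in CD4 with the highest row of each gene, 1.02 in M2 and 2.82 in CD4 with all rows summed, and 3.05 in CD4 with coding rows alone, chosen after seeing the data. Shares of Itgal, Itgam and Itgax were 6.48%, 56.8% and 36.7% in M1, 66.2%, 21.6% and 12.3% in M2 and 7.96%, 74.4% and 17.6% in CD4 with the highest row. With all rows they were 80.7%, 14.3% and 4.998% in M2 and 8.77%, 80.3% and 10.9% in CD4. With Itgad in the sum, Itgam was 64.5% and Itgax 26.7% in M1. Itgb1 over Itgb7 in CD4 was 125.7 with all rows. The cause of these shifts was not tested beyond the change of rows, scale or filter itself. Estimated fragments set the depth limit at 142 for Itgb7 in CD4, the lowest of the members.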
